A study of Mus musculus with 36 samples.

Results

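Transcripts of the LIF-STAT3 axis and of the PIM kinases were followed through the BMP4 induced primed to naïve transition (BiPNT) of mouse epiblast stem cells (EpiSCs). The 8 genes were *Lifr*, *Il6st*, *Jak1*, *Stat3*, *Socs3*, *Pim1*, *Pim2* and *Pim3*, chosen by name as the receptor, kinase, transcription factor, feedback inhibitor and downstream kinases of 1 pathway, out of 28910 genes listed in all 11 RNA-seq libraries. The choice was made with results of these libraries known, so the differences of the 8 genes are given as descriptions with their errors and without p-values.

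EpiSCs (3 libraries) were kept in N2B27 medium with Activin A, bFGF and the tankyrase inhibitor XAV939, without LIF. In BiPNT they pass through a stage 1 medium (iCD1 with BMP4, vitamin C, bFGF, LiCl, LIF, CHIR99021, the EZH2 inhibitor EPZ6438 and the DOT1L inhibitor EPZ5676) for 3 days. They are then moved to a stage 2 medium with the 2i inhibitors PD0325901 and CHIR99021 and vitamin C. The study's methods add LIF to stage 2, whereas the labels of the EpiSC and BV+SC+ libraries do not name it there. Day 3 cells were sorted by the surface receptor c-Kit into c-Kit+ (2 libraries) and c-Kit- cells (2 libraries). Day 6 BV+SC+ cells (2 libraries), which the labels call primordial germ cell-like cells (PGCLCs), were sorted from EpiSCs with 2 reporter transgenes, mVenus under *Blimp1* (BV) and ECFP under *Stella* (SC). The first BV+SC+ library carries the further label 2iJi and the second GK15. The study also tested a GK15 medium in stage 2, with and without cytokines that include LIF, and the addition of an inhibitor of JAK kinases in that stage. The labels explain neither 2iJi nor GK15, so which medium each library had is not known here, and medium and replicate cannot be told apart. Unsorted Day 3 cells with SGC0946 (+SGC), another DOT1L inhibitor, and without it (-SGC) gave 1 library each. The study's methods name EPZ5676 or SGC0946 for stage 1. It describes the +SGC and -SGC samples as with and without DOT1L inhibitor. Nothing in the labels says whether the libraries of a group came from separate cultures, so the spread between them may be technical. The BV+SC+ libraries carry different labels, so their spread may also include a difference in condition. The p-values rest on these spreads.

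LIF binds its receptor LIFR, which pairs with the shared signal transducer gp130, the product of *Il6st*. The receptor-bound kinase JAK1 then phosphorylates STAT3, which enters the nucleus and activates genes that sustain naïve pluripotency in mouse ESCs, while EpiSCs depend on Activin and FGF instead. SOCS3, itself induced by STAT3, binds gp130 and JAKs and dampens the signal. PIM1, PIM2 and PIM3 are closely related serine/threonine kinases that promote survival and translation and need no phosphorylation by an upstream kinase to be active, so their activity follows their abundance, and *Pim1* is a classical STAT3 target.

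The sorted Day 3 libraries held 1726038 to 1841442 expected counts, the EpiSC libraries 2444211 to 3070115, the BV+SC+ libraries 14778809 and 18099059, and the +SGC and -SGC libraries 4776143 and 4577685. The lowest expected count of any of the 8 genes in any library was 19, for *Lifr*, and all 8 passed the filter on low counts in both replicated comparisons. *Kit* stood at 96.0 to 99.6 TPM in c-Kit+ cells and 3.24 to 4.81 TPM in c-Kit- cells. Of the reporter genes, *Prdm1* (Blimp1) had a mean of 128 TPM in BV+SC+ cells and 0.36 TPM in EpiSCs, and *Dppa3* (Stella) 1182 TPM in BV+SC+ cells and a listed 0 in EpiSCs. All 7 trophoblast markers tested of 8 listed were lower in c-Kit+ cells, and their summed level was 1642 and 1386 TPM there against 7136 and 6501 TPM in c-Kit- cells. *Elf5* was too low to be tested. All 9 naïve and germ cell markers were higher in c-Kit+ cells, with sums of 2174 and 2118 TPM against 214 and 189 TPM. In BV+SC+ cells 8 of 9 naïve and germ cell markers were higher than in EpiSCs and 3 of 4 primed markers were lower. All 4 trophoblast markers tested of 8 listed were also higher, and the trophoblast sum was 205 and 68.5 TPM against 33.1 to 47.0 TPM. By the same rule, given below, 17.2% of all genes tested were higher and 17.8% lower in BV+SC+ cells. In c-Kit+ cells these shares were 10.8% and 13.6%. The part of these marker differences in the differences of the 8 genes was not tested, and in bulk libraries fewer cells of a type and less RNA per cell cannot be told apart.

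TPM, which divides counts by transcript length and library size, is used below for levels. Differences between replicated groups are log2 fold changes of TMM-normalized counts from edgeR's quasi-likelihood model over all genes, with a standard error (SE). The SE was derived from the test, as the absolute log2 fold change over the square root of its F statistic. A gene was called at an unadjusted P under 0.05 with a fold over 2. On TPM the median of the 11018 genes tested was shifted by -0.12 (log2) in c-Kit+ against c-Kit- cells, while it was 0.03 on the normalized counts.

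None of the 8 genes was called between c-Kit+ and c-Kit- cells (0 higher, where 10.8% of all genes tested were called higher, and 0 lower, where 13.6% were called lower). Their median log2 fold change was 0.10 against 0.03 over all genes. Between BV+SC+ cells and EpiSCs, 5 of the 8 were called: *Lifr*, *Il6st* and *Pim1* higher (3 of 8, with 17.2% of the 11792 genes tested called higher) and *Socs3* and *Pim2* lower (2 of 8, with 17.8% called lower). Their median was -0.19 against 0.05 over all genes. Between the +SGC and -SGC libraries none of the 8 passed 2-fold on TPM + 1, where 6.33% of the 14038 genes with TPM over 1 were higher and 3.45% lower past 2-fold.

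**Figure D1:**
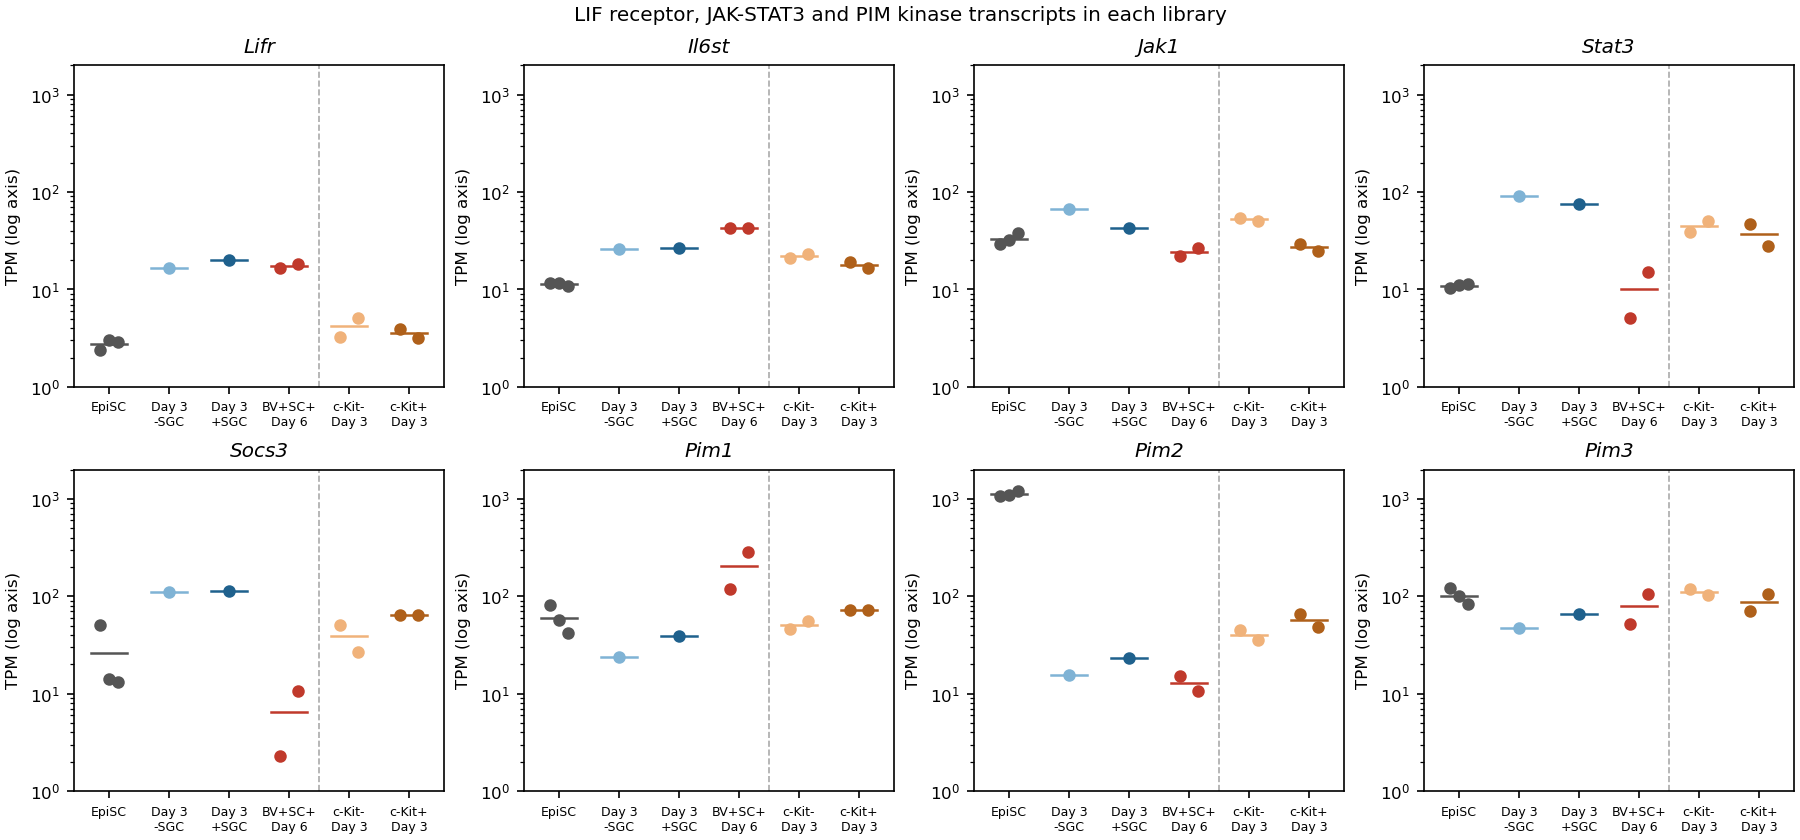
Level of each gene (TPM, log axis) in every library, with 1 point per library and a bar at the group mean. The dashed line sets apart the sorted c-Kit libraries, which were made with another kit and list other genes. *Pim2* stood at 1076 to 1197 TPM in the EpiSC libraries and at 66.5 TPM or less in every other library.

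Both receptor genes were higher in BV+SC+ cells than in EpiSCs. *Lifr*, the LIF-binding chain (chr15:7090614-7197489, plus strand, GRCm38), was at 2.38, 3.02 and 2.92 TPM in EpiSCs and at 16.7 and 18.2 TPM in BV+SC+ cells. *Il6st* (chr13:112464070-112510086, plus strand) was at 11.6, 11.5 and 10.9 TPM in EpiSCs and at 42.5 and 42.7 TPM in BV+SC+ cells. The groups did not overlap for either gene, and the log2 fold changes were 3.03 ± 0.219 (SE, n = 2 and 3) for *Lifr* and 2.07 ± 0.116 for *Il6st*. Unsorted Day 3 cells had 16.8 TPM of *Lifr* without and 20.0 TPM with SGC0946. *Il6st* was at 26.3 and 26.5 TPM in the same libraries, between EpiSCs and BV+SC+ cells. The ratio of *Il6st* to *Lifr* TPM was 3.75 to 4.89 in EpiSCs. It was 1.56 and 1.32 in unsorted Day 3 cells and 2.54 and 2.35 in BV+SC+ cells. In these unsorted Day 3 and BV+SC+ libraries *Lifr* was thus further above its EpiSC level than *Il6st*. The sorted Day 3 libraries did not show this, with ratios of 6.45 and 4.54 in c-Kit- and 4.82 and 5.29 in c-Kit+ cells.

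In the sorted Day 3 cells the receptor genes hardly differed. *Lifr* was at 3.28 and 5.13 TPM in c-Kit- cells and 3.97 and 3.15 TPM in c-Kit+ cells, which overlap, and its log2 fold change of 0.22 ± 0.372 was smaller than its SE. Its mean TPM differed the other way (-0.19 on log2). *Il6st* was at 21.2 and 23.3 TPM in c-Kit- cells and 19.1 and 16.7 TPM in c-Kit+ cells. These TPM do not overlap, whereas on normalized counts they did and the log2 fold change was -0.08 ± 0.152. *Lifr* was several-fold lower in the sorted than in the unsorted Day 3 libraries. Its sorted means of 3.56 TPM (c-Kit+) and 4.21 TPM (c-Kit-) were near the 2.77 TPM of EpiSCs. The sorted libraries were made with an mRNA kit and the unsorted ones from RNA depleted of ribosomal RNA, and kit and sort cannot be told apart.

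*Jak1*, the kinase bound to gp130 (chr4:101152367-101265282, minus strand), was lower in c-Kit+ than in c-Kit- cells on TPM and on normalized counts. It was at 54.6 and 50.9 TPM in c-Kit- cells and 29.4 and 25.0 TPM in c-Kit+ cells, without overlap. The log2 fold change was -0.73 ± 0.142, under 2-fold. In EpiSCs *Jak1* was at 29.0, 32.0 and 38.2 TPM and in BV+SC+ cells at 21.9 and 26.5 TPM. These ranges do not overlap either, with a log2 fold change of -0.34 ± 0.164. The highest *Jak1* level of all libraries was the 67.3 TPM of -SGC Day 3 cells, against 42.9 TPM with SGC0946. That log2 ratio was -0.64, with a 95% interval of -0.80 to -0.47 that covers counting error only, and was -0.40 on CPM.

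*Stat3* (chr11:100885098-100939540, minus strand) transcripts were most abundant at Day 3. The -SGC and +SGC libraries held 91.3 and 76.2 TPM (log2 ratio -0.26, interval -0.39 to -0.12). EpiSCs held 10.3, 11.0 and 11.3 TPM. BV+SC+ cells held 5.15 TPM in the 2iJi library and 15.3 TPM in the GK15 library, below and above all 3 EpiSC libraries. The groups therefore overlapped, and the log2 fold change of -0.11 became -1.06 without the GK15 library, a value past the threshold, and 0.46 without the 2iJi library. The sorted cells lay between these levels, at 39.0 and 50.0 TPM in c-Kit- cells and 46.6 and 27.9 TPM in c-Kit+ cells. The order of c-Kit+ against c-Kit- depended on which library was left out, with log2 fold changes from -0.43 to 0.25. Annotated *Stat3* and *Stat5a* overlap on opposite strands at their 3' ends, and reads there were not told apart by strand here.

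*Socs3*, the feedback inhibitor (chr11:117966079-117970047, minus strand), followed *Stat3* in its high level at Day 3. It was at 112 TPM without and 113 TPM with SGC0946. Relative to its mean, it varied most of the 8 genes within the EpiSC group and within the BV+SC+ group. It was at 51.0, 14.2 and 13.2 TPM in EpiSCs and at 2.28 and 10.8 TPM in BV+SC+ cells. The groups did not overlap and the log2 fold change was -2.0 ± 0.752. Without EpiSC replicate 1 it was -1.09 and no longer called, without the 2iJi library -1.31 and without the GK15 library -3.45. DESeq2 and an adjusted p under 0.05 did not call it either. The same EpiSC library was also apart from the other EpiSC libraries for *Klf4* (40.4 TPM, with a lowest value of 4.17 TPM), *Junb* (143 and 33.2 TPM) and *Klf2* (48.9 and 6.30 TPM). In the sorted cells *Socs3* was at 63.6 and 63.7 TPM in c-Kit+ cells and 50.8 and 27 TPM in c-Kit- cells, without overlap. The log2 fold change was 0.85 ± 0.246. It was 1.35 without c-Kit- replicate 1 and 0.44 without c-Kit- replicate 2.

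Of the 8 genes, *Socs3* was the only one with a match to the spaced palindrome bound by STAT factors (TTC, any 3 bases, GAA, which reads the same on both strands) in the 250 bases before a RefSeq start site. All 8 genes matched the RefSeq table, with 10 windows in all, and 7.02% of the 32851 windows in it hold a match. The match begins 154 bases upstream of the start. The window is chr11:117969367-117969616 on the minus strand of GRCm38.p6, inside the longest annotated span of the gene, and the match is in capitals.
Socs3: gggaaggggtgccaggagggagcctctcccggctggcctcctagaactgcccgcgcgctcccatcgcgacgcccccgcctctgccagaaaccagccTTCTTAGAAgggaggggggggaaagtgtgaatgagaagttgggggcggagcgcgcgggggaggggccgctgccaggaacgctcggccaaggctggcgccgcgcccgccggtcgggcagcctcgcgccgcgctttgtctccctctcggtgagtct

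The PIM kinase genes changed places. *Pim2* made up 84.2% to 90.5% of the summed PIM TPM in the 3 EpiSC libraries, and *Pim1* 64.1% and 71.0% in the BV+SC+ libraries, where *Pim2* was at 8.09% and 2.66%. *Pim2* (chrX:7878262-7883432, plus strand) was at 1076, 1086 and 1197 TPM in EpiSCs, where it ranked between 88 and 97 among 29267 genes, and at 15.1 and 10.8 TPM in BV+SC+ cells. Its log2 fold change of -6.35 ± 0.173, or 81.6-fold, was the widest of the 8 genes in any comparison. Unsorted Day 3 cells were at 15.7 and 23.0 TPM and sorted Day 3 cells at 35.6 to 66.5 TPM. All Day 3 libraries were thus below EpiSCs, but they belong to other experiments, so stage and experiment cannot be told apart. Over all EpiSC libraries the spread of *Pim2* (1119.5 ± 66.9 TPM, SD, n = 3) was small beside its difference from BV+SC+ cells.

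*Pim1* (chr17:29490753-29496112, plus strand) was at 81.5, 57.0 and 42.1 TPM in EpiSCs and at 119.6 TPM (2iJi) and 287 TPM (GK15) in BV+SC+ cells. The groups did not overlap, and the log2 fold change was 1.83 ± 0.384, or 1.03 without the GK15 library. In unsorted Day 3 cells it was below EpiSCs, at 23.9 TPM without and 38.7 TPM with SGC0946 (log2 ratio 0.67, interval 0.38 to 0.96). *Pim3* (chr15:88862186-88865726, plus strand) differed less. It was at 120.5, 101 and 82.9 TPM in EpiSCs and at 52.0 and 107 TPM in BV+SC+ cells, which overlap, with a log2 fold change of -0.28 that was -0.92 without the GK15 and 0.17 without the 2iJi library. *Pim3* was the largest of the 3 in unsorted Day 3 cells, at 54.3% and 51.5% of the PIM sum, where the sum itself was lowest (86.8 and 127 TPM against 1244 to 1322 TPM in EpiSCs and 187 and 405 TPM in BV+SC+ cells).

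All 3 PIM genes were higher in the +SGC than in the -SGC library, each by less than 2-fold. *Pim2* had a log2 ratio of 0.52 (0.10 to 0.95) and *Pim3*, at 65.5 and 47.1 TPM, of 0.47 (0.24 to 0.69). *Pim1* and *Pim2* were also higher in c-Kit+ than in c-Kit- cells. *Pim1* was at 72.2 and 71.9 TPM in c-Kit+ cells against 45.9 and 55.5 TPM (log2 fold change 0.65 ± 0.154), and *Pim2* at 66.5 and 48.3 TPM against 45.3 and 35.6 TPM (0.65 ± 0.215). *Pim3* overlapped between them, at 70.2 and 105 TPM in c-Kit+ cells and 119 and 102 TPM in c-Kit- cells. The PIM sum was alike in the sorted cells, at 209 and 225 TPM in c-Kit+ and 210.1 and 193 TPM in c-Kit- cells, with the *Pim3* share at 33.6% and 46.5% in c-Kit+ and 56.6% and 52.9% in c-Kit- cells. A *Pim1* transcript shares sequence with the antisense gene *Gm26885*, which had at most 47.4 expected counts in any library.

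The upstream windows of *Pim1* (chr17:29490535-29490784, plus strand) and *Pim2* (chrX:7878056-7878305, plus strand), the pair that changed places, are shown for GRCm38.p6. Their G and C content was 82.4% and 62.0%, with 36 and 22 CG dinucleotides, and neither holds the STAT palindrome above.
Pim1: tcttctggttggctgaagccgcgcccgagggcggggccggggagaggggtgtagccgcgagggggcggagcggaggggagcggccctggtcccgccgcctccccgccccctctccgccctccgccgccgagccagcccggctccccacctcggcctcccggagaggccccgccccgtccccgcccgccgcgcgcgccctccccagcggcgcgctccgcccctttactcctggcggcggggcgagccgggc
Pim2: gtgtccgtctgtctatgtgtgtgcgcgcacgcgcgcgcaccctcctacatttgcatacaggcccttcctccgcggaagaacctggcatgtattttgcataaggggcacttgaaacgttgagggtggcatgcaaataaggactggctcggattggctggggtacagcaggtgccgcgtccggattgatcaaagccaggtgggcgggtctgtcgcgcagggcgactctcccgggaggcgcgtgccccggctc

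**Figure D2:**
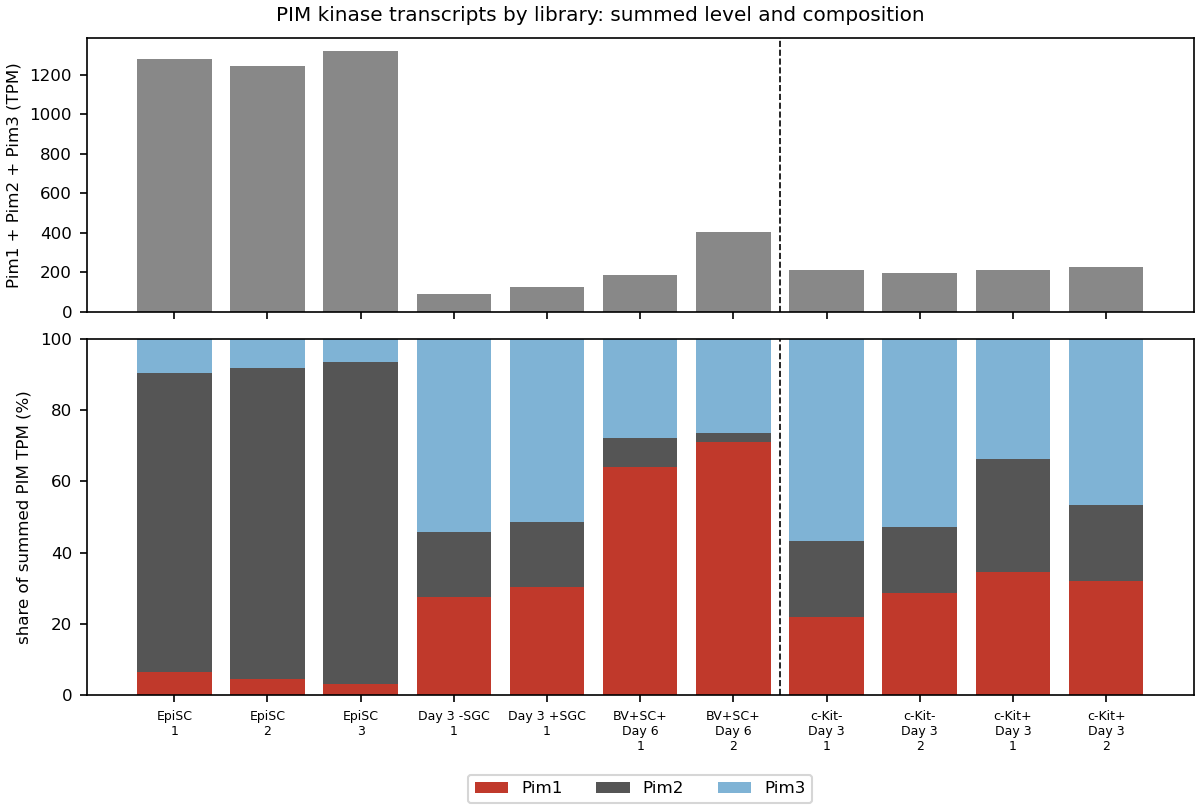
Summed TPM of *Pim1*, *Pim2* and *Pim3* (upper panel) and the share of each in that sum (lower panel, %), with 1 bar per library and its replicate number below. The dashed line sets apart the sorted c-Kit libraries. *Pim2* held at least 84.2% of the sum in EpiSCs and *Pim1* at least 64.1% in BV+SC+ cells.

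Counting groups whose TPM did not overlap, 3 of the 8 genes were higher in c-Kit+ cells (*Socs3*, *Pim1* and *Pim2*), a state shared by 28.5% of all genes tested, and 2 were lower (*Il6st* and *Jak1*), as were 40.7%. In BV+SC+ cells 3 were higher without overlap (*Lifr*, *Il6st* and *Pim1*, with 34.0% of all genes) and 3 lower (*Jak1*, *Socs3* and *Pim2*, with 36.3%). The shares of all genes are large in groups this small.

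**Figure D3:**
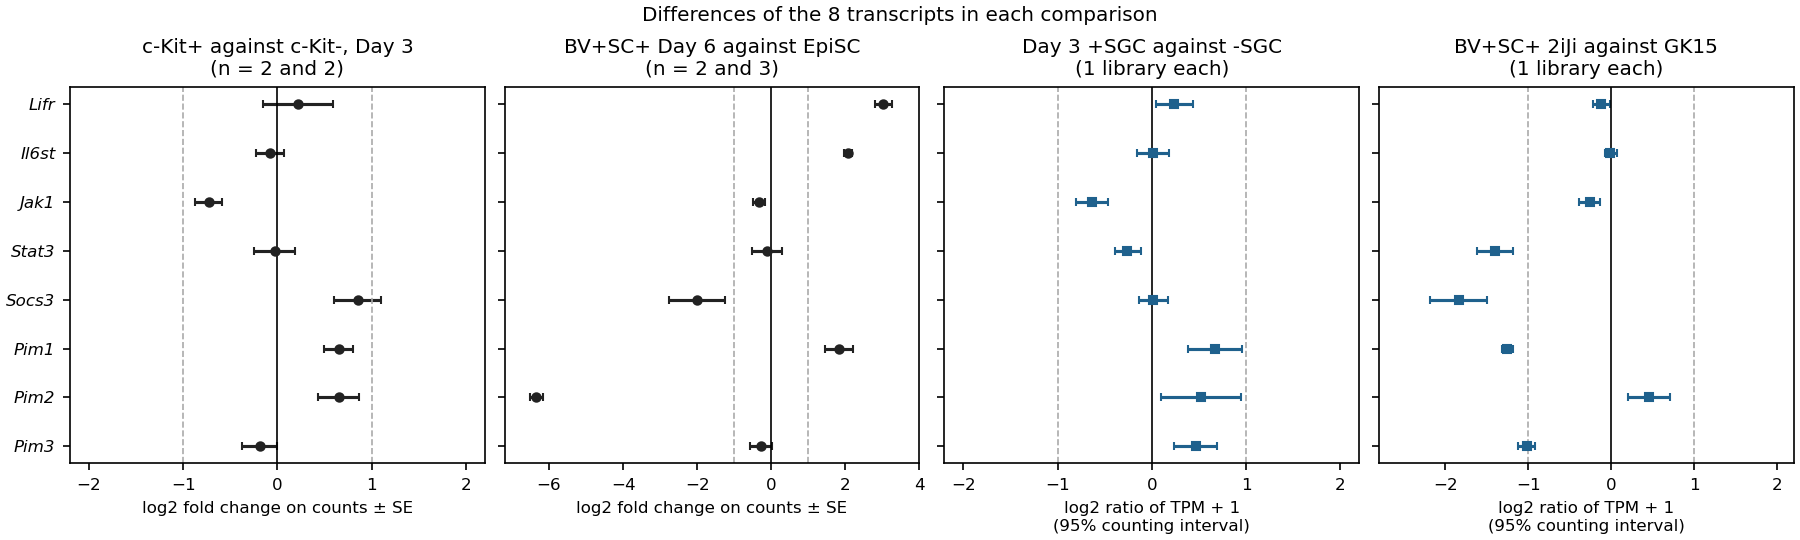
Differences of the 8 genes in 4 comparisons: log2 fold change on counts with its SE (circles) and, for single libraries, log2 ratio of TPM + 1 with the 95% interval of counting error (squares). Dashed lines mark 2-fold, and the horizontal scale differs between panels. *Stat3*, *Socs3*, *Pim1* and *Pim3* lie left of the 2-fold line between the BV+SC+ libraries.

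The BV+SC+ libraries differed from each other in *Stat3*, *Socs3*, *Pim1* and *Pim3* more than in the receptor genes. The 2iJi library was lower than the GK15 library past 2-fold for 4 of the 8 genes, against 5.44% of the 13574 genes with TPM over 1, and higher for none, against 5.94%. The log2 ratios were -1.40 for *Stat3* (interval -1.62 to -1.19), -1.84 for *Socs3* (-2.18 to -1.50), -1.26 for *Pim1* (-1.32 to -1.19) and -1.02 for *Pim3* (-1.13 to -0.92). *Lifr* and *Il6st* were at -0.12 and -0.01, *Jak1* at -0.26 and *Pim2* at 0.45. With 1 library each there is no replicate check of these values. The trophoblast marker sum was 205 TPM in the 2iJi and 68.5 TPM in the GK15 library, and 3 primed markers were lower past 2-fold in the 2iJi library (*Otx2*, *Fgf5* and *Dnmt3b*). Their part in the ratios was not tested. Of 49 other pathway genes, beside the same shares of all genes, 3 were higher (*Osm*, *Cntfr* and *Cdkn1a*) and 4 lower past 2-fold (*Stat4*, *Gab1* and the STAT3 target genes *Klf4* and *Junb*). *Klf4* was at 2.85 TPM in the 2iJi and 9.73 TPM in the GK15 library (log2 ratio -1.48), and *Junb* at 3.78 and 12.2 TPM (-1.47). The other 7 of 9 STAT3 target genes with TPM over 1 lay within 2-fold, in both directions. The median log2 ratio over the 9 was -0.6.

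Unsorted Day 3 cells and EpiSCs were set side by side as means of 2 and 3 libraries without a test. The Day 3 mean joins the +SGC and -SGC libraries, so it mixes cells with and without DOT1L inhibitor. On TPM + 1, 4 of the 8 genes were higher past 2-fold, where 17.2% of 14032 genes were. Only 1 was lower, where 7.98% of all genes were. The log2 ratios were 2.84 for *Stat3*, 2.36 for *Lifr*, 2.06 for *Socs3*, 1.15 for *Il6st* and -5.78 for *Pim2*, with a median of 0.14 over all genes. *Jak1* was at 0.72, *Pim1* at -0.92 and *Pim3* at -0.84. The order of group means over EpiSC, -SGC, +SGC and BV+SC+ libraries differed between the genes. *Il6st* was highest in BV+SC+ cells, followed by +SGC, -SGC and EpiSCs, although the Day 3 libraries differed by less than their counting interval (-0.16 to 0.18). *Lifr* was lowest in EpiSCs, with no clear order among the others. The sorted Day 3 libraries, left out of this order, held 3.15 to 5.13 TPM of *Lifr*. *Jak1*, *Stat3* and *Socs3* were highest in the Day 3 libraries, *Pim1* was highest in BV+SC+ cells and *Pim2* in EpiSCs, while the *Pim3* ranges of BV+SC+ cells overlapped those of EpiSCs and of the +SGC library. The Day 3 libraries belong to another experiment of the study, so stage and experiment cannot be told apart.

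Other genes of the pathway were counted over 56 genes in 8 lists. In c-Kit+ against c-Kit- cells 45 were tested, of which 4 were called higher and 9 lower (10.8% and 13.6% over all genes), and 21 had an adjusted p under 0.05 (edgeR's quasi-likelihood test, Benjamini-Hochberg over all genes), where 41.5% of all genes did. The called ligand and receptor genes (1 of 2 and 2 of 4 tested) were higher on the c-Kit- side. *Lif* itself averaged 2.63 ± 1.39 TPM on the c-Kit+ side against 11.4 ± 0.70 TPM (SD, n = 2). Its log2 fold change was -1.72 (edgeR, adjusted p = 0.015), and -2.50 to -1.28 when a library was left out. The c-Kit+ libraries held only 6 and 15 counts of *Lif*. *Il6ra*, the IL-6 binding chain, was at 5.38 and 29.0 TPM on average (-2.42, adjusted p = 5.02e-05). Of 7 SOCS genes, *Socs2* was higher (111 against 20.1 TPM, log2 fold change 2.64) and *Socs1* lower (14.0 against 51.3 TPM, -1.74). *Socs1* ranged from -2.35 to -1.34 when a library was left out.

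Among the kinases and factors, *Jak3* was higher in c-Kit+ cells (45.1 against 18.3 TPM, log2 fold change 1.46), while *Stat5a* (1.02 against 9.27 TPM, -2.58) was lower. *Stat5a* ranged from -4.33 without c-Kit+ replicate 1 to -1.81 without c-Kit+ replicate 2. Of 8 STAT3 target genes tested, *Gbx2* (3.40) and *Sall4* (1.98) were higher and *Myc* lower (24.4 against 97.8 TPM, -1.91). *Gbx2* had 1 and 4 counts in the c-Kit- libraries, and its log2 fold change was 2.72 without c-Kit- replicate 1 and 4.60 without c-Kit- replicate 2. The adaptor *Gab1* (-1.14) and, of 7 PIM substrates, the cell cycle inhibitor *Cdkn1a* (51.0 against 139 TPM, -1.32) were lower. The median over the 45 genes was -0.23 against 0.03 over all genes.

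In BV+SC+ cells against EpiSCs 45 genes were tested, of which 11 were called higher and 7 lower (17.2% and 17.8% over all genes), and 26 had an adjusted p under 0.05, as did 56.0% of all genes. The median was 0.17 against 0.05. All 5 STAT genes tested were called, in both directions. *Stat4* (18.1 against 1.73 TPM, log2 fold change 4.04, and 3.14 without the GK15 library) and *Stat2* (1.21, named with *Klf5* after the values were seen) were higher, while *Stat5b* (1.54 against 13.8 TPM, -3.08), *Stat5a* (-2.35) and *Stat6* (-1.55) were lower. *Jak3* was again higher (39.9 against 4.58 TPM, 3.24), and so was the phosphatase gene *Ptpn6*, which encodes SHP-1 (98.9 against 15.0 TPM, 3.11). *Ptpn2*, another phosphatase that acts on JAKs and STATs, *Pias2* and *Socs2* were higher by 1.14, 1.00 and 1.24, and *Pias2* was no longer called without EpiSC replicate 1 (0.99), without the GK15 library (0.97) or with an effective length offset (0.78).

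Of 9 STAT3 target genes, *Tfcp2l1*, a naïve pluripotency factor, was at 40.2 ± 2.50 TPM in BV+SC+ cells and 0.73 ± 0.38 TPM in EpiSCs (log2 fold change 5.80, adjusted p = 6.31e-06), and *Klf5* was at 69.7 and 17.5 TPM (2.06). *Bcl3* and the ligand gene *Osm* were listed at 0 in EpiSCs, and against 3 counts their BV+SC+ levels were at least 4.93-fold and 4.85-fold higher. *Myc* was lower (4.21 against 109.7 TPM, -4.62), as was *Junb* (-3.05), which was -1.98 without EpiSC replicate 1, -2.45 without the 2iJi and -4.18 without the GK15 library. The receptor gene *Cntfr* (3.84 against 74.7 TPM, -4.52) was lower. *Cntfr* ranged from -6.79 without the 2iJi to -3.63 without the GK15 library. None of the 7 PIM substrates was called.

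**Figure D4:**
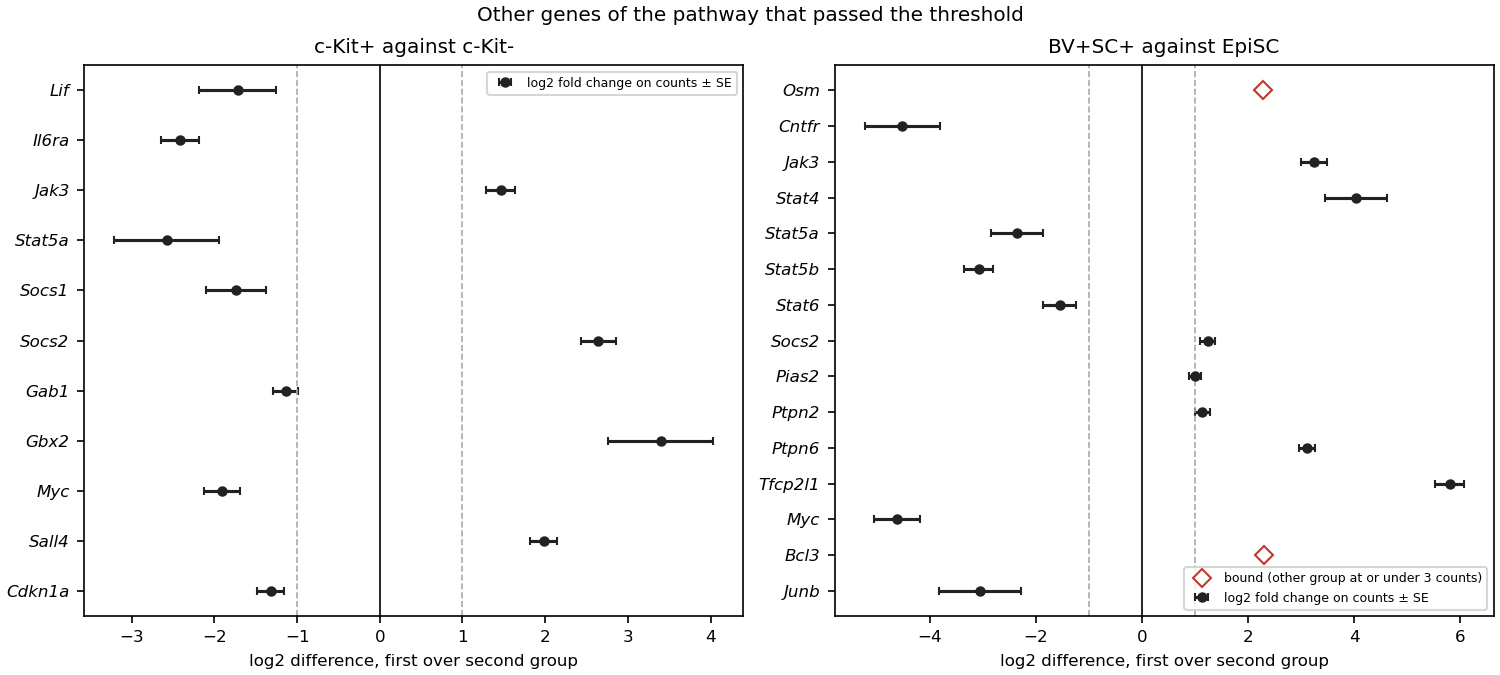
Named genes of the pathway lists that passed the threshold in c-Kit+ against c-Kit- cells (left) and BV+SC+ cells against EpiSCs (right), as log2 fold change on counts with its SE, or as a bound (open diamonds, right) where the other group had at most 3 counts in each library. Dashed lines mark 2-fold. *Tfcp2l1* had the highest measured value on the right, at 5.80.

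With SGC0946, 2 of 49 pathway genes with TPM over 1 were higher past 2-fold and 0 lower, beside 6.33% and 3.45% of all genes. *Klf5* was at 43.3 TPM with and 16.6 TPM without it (log2 ratio 1.33, interval 0.92 to 1.74), and *Ptpn6* at 12.2 and 5.31 TPM (1.07, 0.48 to 1.66). The summed naïve and germ cell markers were 1056 TPM with and 287 TPM without SGC0946, and the trophoblast markers 2401 and 2928 TPM. Their part in these ratios was not tested.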

How the data were processed

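The authors aligned reads to mouse transcripts (mm10) with Bowtie2 and deposited expected counts per gene estimated with RSEM, version 1.3.1 per the labels of 7 libraries, which are not normalized between libraries. The deposited TPM are RSEM's own, and the authors' FPKM were not used here. The files hold 50600 genes for the sorted cells and 29267 for the others, of which 99.56% and 98.25% matched a symbol in GENCODE M21, so tests stayed within a set. The effective length per gene, deposited by the authors beside each expected count, served as an offset in 1 alternative.

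The 8 genes and the pathway lists were chosen with earlier results of these data known. Expected counts were rounded, filtered with filterByExpr, scaled by TMM and fitted with glmQLFit and glmQLFTest of edgeR 4.0.16 under R 4.3.3. All 8 genes, and up to 4 genes per pathway list with the largest log2 fold change among those called, are named, apart from a few that are not reported here. A group with at most 3 counts in each library was set to 3 counts in its shallowest library, which gives lower bounds. Single libraries were compared by log2 of TPM + 1 among genes with TPM over 1, with exact conditional binomial (Clopper-Pearson) 95% intervals. Intervals and bounds cover counting error only, since reads are not independent molecules. No pair of replicates was alike within sampling noise, as checked by chi-square. Promoter windows came from RefSeq (GRCm38.p6), and shared sequence of at least 75 bases was sought with BLAST+ 2.17.0. Alternatives were DESeq2 1.42.0, RLE factors, other filters, an adjusted threshold, length offsets, a replicate block, other scalings and pseudocounts, and each library left out. The ATAC-seq, ChIP-seq and single-cell samples were not analysed here.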

Additional observations from a re-analysis of the deposited data

How the results depend on the processing

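Calls at 2 or 3 libraries per group rest on few values. Of the 8 genes, the number called in c-Kit+ against c-Kit- cells was 0 under each tool, filter and scaling, and 0 to 1 when a library was left out (*Socs3*, 1.35 without c-Kit- replicate 1). In BV+SC+ cells against EpiSCs it was 5, 4 with DESeq2 or an adjusted p, and 4 to 6 when a library was left out (without EpiSC replicate 1 and without BV+SC+ replicate 2). All genes called between c-Kit+ and c-Kit- cells numbered 2693, and 1708 with at least 10 counts in every library. Between +SGC and -SGC, 1373 genes passed 2-fold (64.7% of them higher), 555 with TPM over 1 in both libraries and 817 on CPM (77.1% higher). No called value changed sign. Uncalled ones did when a library was left out (*Lifr*, *Stat3* and *Pim3* in the sorted cells, *Stat3* and *Pim3* in BV+SC+ cells against EpiSCs). *Lifr* in the sorted cells also did with the effective length offset (-0.12). The numbers of the sorted libraries show no pairing that the design states. The correlation of same-numbered deviations was 0.114. Both pairs must give the same number with 2 libraries per group, so this is 1 value. With the replicate block 2693 genes, 0 of the 8 genes and 13 pathway genes were called in c-Kit+ against c-Kit- cells. In BV+SC+ cells against EpiSCs these counts were 4027, 5 and 19. The order of group means was the same on TPM and normalized CPM for 7 of the 8 genes, *Lifr* being the exception. Values in single libraries, and genes with few counts in the shallow EpiSC libraries, are limited by depth.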

Other observations

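Between EpiSCs and unsorted Day 3 cells, 10 of 49 other pathway genes were higher past 2-fold on TPM + 1 and 1 was lower, where 17.2% and 7.98% of all genes were. The ligand gene *Lif* was at 2.96 TPM on average in EpiSCs and 7.13 TPM at Day 3, while *Il6* was listed at 0 in both. The lower gene was *Myc* (log2 ratio -1.56). These 3 genes were chosen after their values were seen, and the values have no test.

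Over the 7 EpiSC, Day 3 and BV+SC+ libraries, many genes had a pattern like that of a member. Of 10315 protein-coding genes compared, Pearson's r of log2(TPM + 1) with *Pim2* was over 0.95 for 207, with *Il6st* for 232 and with *Lifr* for 171, but with *Pim3* for 4. The genes most like *Pim2* were *Klhl4* (r = 0.997), *Dll3* and *Mif* (0.996 each). For the other members they included *Atxn10* and *Mfge8* (*Lifr*), *Exoc6b*, *Rhox6* and *Tbc1d25* (*Il6st*), *Cdc25b*, *E130308A19Rik* and *Adck2* (*Jak1*), *Zfpm1*, *Pcolce* and *Wasf1* (*Stat3*), *Chaf1a* and *Ginm1* (*Socs3*), *Sfr1*, *Iqgap3* and *Mbtd1* (*Pim1*), and *Klhl21*, *Pnpla6* and *Ube2s* (*Pim3*), with r between 0.958 and 0.998. The 7 libraries form 4 groups, so r mostly reflects group means, and of the 24 genes chosen this way (3 for each member) 2 were chosen again on normalized CPM, *Cdc25b* for *Jak1* and *Klhl21* for *Pim3*.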
